A study of Mus musculus with 63 samples.

Results

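The miR-17 to miR-92a cluster is a run of microRNA hairpins cut from 1 long noncoding transcript, Mir17hg, on mouse chromosome 14. Its members were taken by name (mmu-miR-17-5p, mmu-miR-17-3p, mmu-miR-18a-5p, mmu-miR-18a-3p, mmu-miR-19a-5p, mmu-miR-19a-3p, mmu-miR-20a-5p, mmu-miR-19b-3p and mmu-miR-92a-3p, the species prefix left out below), with every locus that the count table lists under each name. That gave 9 of 1966 mature names and 11 of 2110 loci: 9 on chromosome 14 and 2 on the X chromosome, because miR-19b-3p and miR-92a-3p each have a second hairpin there. The names were chosen for where their hairpins lie and not by a cut on measured values, but with earlier results of these data known. The study had already reported miR-18a-5p as enriched in macrophages and changing with injury in these data. The comparisons below ask whether members of 1 transcript rose and fell together.

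Small RNA was sequenced from 4 cell populations sorted from each of 16 kidneys of male C57BL/6 mice (young adults, with no transgene or mutation named in the labels), giving 63 libraries. Mice had a sham operation, unilateral ureteric obstruction of 2 days (UUO-2) or 7 days (UUO-7), or obstruction of 7 days followed by reimplantation of the ureter and recovery (rUUO in the labels, R-UUO here), with 4 mice per group. The sorted populations were CD31+ endothelial cells (ECs), F4/80+ macrophages (Macs), LTL+ proximal tubular (PT) cells and PDGFR-β+ mesenchymal cells. Each had 4 libraries in every injury group except PDGFR-β+ cells at UUO-7, which had 3. The mice sequenced were those nearest their group's mean for a kidney injury transcript, so the spread between them may be narrower than that of the whole group. The F4/80 gate does not separate resident from recruited Macs, and LTL marks tubular cells only as long as they bind the lectin. In RNA pooled from sorted cells, fewer cells of a subtype and less RNA per cell cannot be told apart.

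MYC and the E2F factors drive Mir17hg, and the cluster is best known for holding cells in the cycle and for its role in B cell lymphoma and in the growth of the lung, heart and immune system. Its miRNAs fall into seed families: miR-17, miR-20a and the nearby miR-18a repress cell cycle inhibitors and TGF-β pathway genes, miR-19 is the main oncogenic family, and miR-92a restrains vessel growth in ECs. Related clusters lie in an intron of Mcm7 and on the X chromosome. Members are cut from 1 transcript, but each hairpin is processed and each mature strand decays at its own rate.

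The mature sequences show which members can share targets and which can share reads. They are RefSeq sequences on GRCm38.p6, written 5′ to 3′ with the seed, bases 2 to 8, in capitals. The seed AAAGUGC was shared by miR-17-5p and miR-20a-5p, which differed at 2 of 23 bases (C1U and C12U, counted from the 5′ end of miR-17-5p). miR-18a-5p differed from miR-17-5p at 6 of 23 bases, 1 of them in the seed (A4G). miR-19a-3p and miR-19b-3p shared GUGCAAA and differed at 1 of 23 bases (U11C). miR-92a-3p, miR-17-3p and miR-18a-3p had seeds of their own.
miR-17-5p: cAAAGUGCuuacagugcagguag
miR-20a-5p: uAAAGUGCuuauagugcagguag
miR-18a-5p: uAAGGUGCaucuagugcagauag
miR-19a-3p: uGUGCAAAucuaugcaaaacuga
miR-19b-3p: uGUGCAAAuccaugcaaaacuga
miR-92a-3p: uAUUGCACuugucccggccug
miR-17-3p: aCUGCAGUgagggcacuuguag
miR-18a-3p: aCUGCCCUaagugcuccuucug

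RefSeq sequences were matched for 8 of the 9 names, and miR-19a-5p is given by name only. On GRCm38, as the count table gives the coordinates, the 9 chromosome 14 loci lie on the plus strand between chr14:115043684-115044496, a stretch of 813 bases inside 1 exon of Mir17hg (chr14:115043271-115046727). In transcript order the hairpins are Mir17, Mir18, Mir19a, Mir20a, Mir19b-1 and Mir92-1. The X copies lie on the minus strand at chrX:52741991-52742013 (miR-19b-3p, hairpin Mir19b-2) and chrX:52741854-52741874 (miR-92a-3p, hairpin Mir92-2). Mature miR-92a-3p is identical at both loci, and only the rest of the hairpin tells them apart. The hairpins are shown because the split of the counts assigned to them changed in PT cells, with the mature strand in capitals.
Mir92-1: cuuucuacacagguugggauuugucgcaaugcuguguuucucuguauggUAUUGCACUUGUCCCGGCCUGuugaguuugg
Mir92-2: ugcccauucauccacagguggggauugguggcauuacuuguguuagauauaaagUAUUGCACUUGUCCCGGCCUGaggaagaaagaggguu

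Depth ranged from 616565 counts in a PT library to 10819385 in an EC library, and PT libraries were the shallowest population (median 1043054). The summed markers of each sorted population were highest in that population. Those used for Macs, miR-142a-3p, miR-142a-5p and miR-223-3p, summed to 14702 to 41963 CPM in Macs and at most 698 CPM elsewhere. CPM are counts scaled to a common total per library, here over all libraries. These Mac markers are leukocyte miRNAs, so below they do not tell Macs from other leukocytes. The PDGFR-β+ markers are miR-143-3p, miR-145a-5p, miR-199a-3p, miR-199a-5p and miR-214-3p. The EC markers are miR-126a-3p and miR-126a-5p. The PT markers are miR-192-5p, miR-194-5p and miR-215-5p, the last with 0 counts in 5 of 16 PT libraries. The red cell markers miR-451a and miR-144, which would mark blood, summed to at most 11.98 CPM in any library. In PT cells 6 members passed the low-count filter on chromosome 14 (not miR-18a-5p, miR-18a-3p or miR-19a-5p), in ECs and PDGFR-β+ cells 8 did (not miR-19a-5p) and in Macs all 9 did. A pair of R-UUO libraries stood apart in miR-19: R-UUO replicate 1 of the PT cells and R-UUO replicate 4 of the ECs. In that PT library the PT markers summed to 16092 CPM against 34793 to 64996 in the other 3 R-UUO libraries and the PDGFR-β+ markers to 25837 against 3825 to 5841. In that EC library the EC markers summed to 93093 CPM against 133326 to 168226 and the PDGFR-β+ markers to 7663 against 20605 to 46033. Changes that rest on either library are given with and without it, and correlations only with it.

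The cluster was a small part of most libraries and was dominated by 1 member. All members together took 1.82 to 5.00% of a Mac library and at most 1.33% of any other library. miR-92a-3p made up 81.1 to 98.4% of the member counts of a library (median 96.5%). Of what remained, miR-19b-3p had the largest median share (58.1%) and miR-17-5p the next (18.3%). A sum over the cluster is therefore close to a measure of miR-92a-3p, and members are described singly. Levels of different miRNAs also carry the ligation efficiency of each sequence, so their order within a library is that of the reads.

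Every member was higher in Macs than in the mean of the other 3 populations. miR-17-5p, the lead miRNA of the cluster, averaged 145 CPM ± 51.9 (SD, n = 16) in Macs, 69.9 ± 21.1 (n = 16) in PT cells, 42.2 ± 12.4 (n = 15) in PDGFR-β+ cells and 42.1 ± 6.29 (n = 16) in ECs, when all 63 libraries were scaled together. ECs and PDGFR-β+ cells did not differ beyond their spread, and the lowest Mac library (69.3 CPM) lay inside the range of the PT libraries (27.1 to 99.1 CPM). For miR-20a-5p Macs again came first and PT cells second, at 80.7 and 43.7 CPM, with ECs at 22.9 and the PDGFR-β+ population at 19.2. miR-92a-3p had another order below Macs: 22247 CPM ± 5860 in Macs, 10657 ± 1975 in ECs, 6942 ± 2334 in PT cells and 4144 ± 488 among PDGFR-β+ cells, all for the chromosome 14 locus. miR-18a-3p had the largest difference between Macs and the rest, with 34.6 CPM in Macs against 4.14 in PT cells, 2.77 in ECs and 2.40 among PDGFR-β+ cells.

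**Figure D1:**
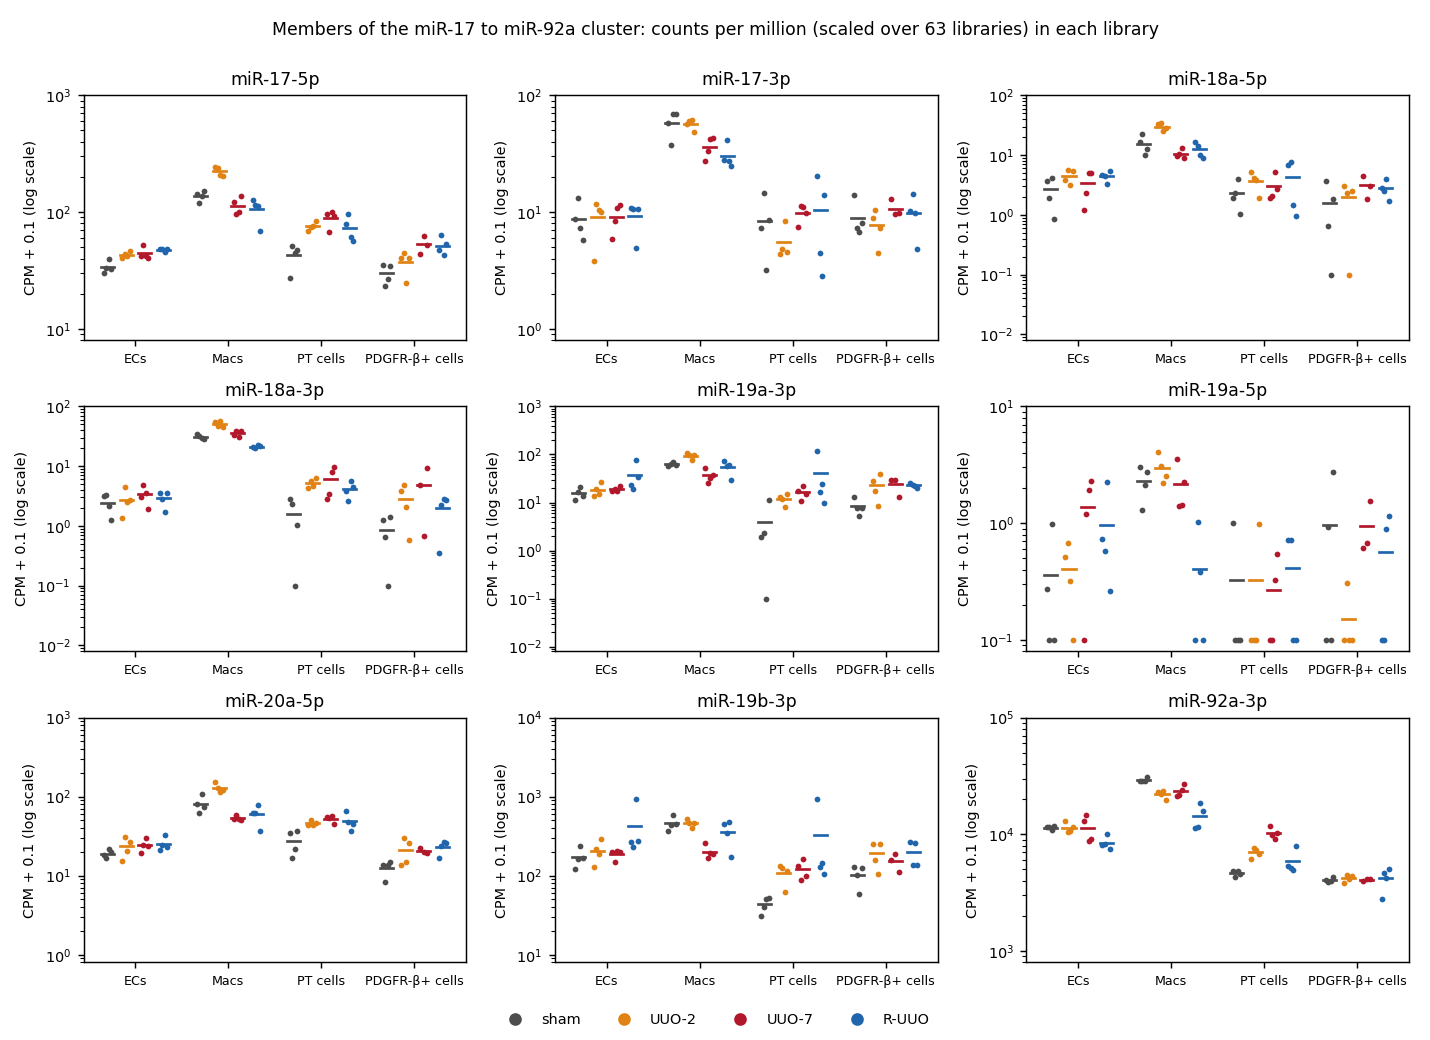
Level of each member (chromosome 14 locus) in each library, as CPM scaled over the 63 libraries plus 0.1, on a log axis. Points are libraries grouped by cell type and coloured by injury group, and bars are group means. Mac libraries sit highest for all 9 members on average, and miR-92a-3p lies between 2793 and 30833 CPM while miR-19a-5p never exceeds 3.95 CPM.

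In the edgeR quasi-likelihood fit over all libraries, 9 of 9 members were higher in Macs (adjusted p under 0.05 and at least 1.5-fold), beside 30.4% of all 671 loci. The difference from the mean of the other populations on the log2 scale ran from 1.12 ± 0.16 (SE, adjusted p = 1.3e-08) for miR-19b-3p to 3.56 ± 0.17 (adjusted p = 1.28e-26) for miR-18a-3p, with a median of 1.77 against -0.24 over all loci. In sham kidneys alone it was again 9 of 9, beside 27.1% of loci, with a median of 2.49 against -0.25. Leaving out any mouse, scaling by library size alone or using DESeq2 kept all 9 above that threshold.

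The other populations split the members. In PDGFR-β+ cells 6 of 9 were lower than in the other populations over all conditions (21.9% of loci), the largest differences being in miR-18a-3p (-1.69 ± 0.24, adjusted p = 9.16e-09) and miR-92a-3p (-1.47 ± 0.07, adjusted p = 1.13e-26). In ECs 4 of 9 were lower (25.9% of loci): miR-17-5p, miR-17-3p, miR-18a-3p and miR-20a-5p. In PT cells 6 of 9 were lower (26.8% of loci), but miR-17-5p was not (0.12 ± 0.08, adjusted p = 0.198) and miR-20a-5p stood at 0.41 ± 0.10 (adjusted p = 0.000182, under the 1.5-fold limit). Over all conditions the PT count was 4 to 7 in the 16 fits that left out 1 mouse. The PT call of miR-19a-5p, which had 0 or 1 count in each PT library, was lost in 8 of them. That of miR-18a-5p was lost in 5. In sham cells alone the counts were 6 lower in PDGFR-β+ cells (22.8% of loci), 3 in ECs (16.5%) and 5 in PT cells (24.9%). With the mouse as a replicate block, PT cells lost the calls of miR-19a-5p over all conditions (-1.42, adjusted p = 0.0733) and of miR-18a-3p in sham (-1.49, 0.0542). The EC sham count was 1 without the mice R-UUO replicate 2, UUO-2 replicate 1 or UUO-2 replicate 4, and the PT sham count 3 without the mice sham replicate 1 or 3. R-UUO and UUO-2 libraries carry no weight in the sham comparison, so leaving those mice out acts only through the shared scaling, filter and spread.

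Macs gave the clearest course through injury, and the members did not follow it together. From sham to UUO-2 miR-17-5p rose from 223, 185, 222 and 222 CPM to 413, 432, 357 and 383 CPM (levels here and below scaled within the cell type, libraries in replicate order). At UUO-7 it was back at 213, 169, 185 and 208 CPM and after reversal at 210, 182, 173 and 118 CPM. All 4 UUO-2 libraries lay above all 12 others. The rise was 0.90 ± 0.16 on the log2 scale (1.86-fold, adjusted p = 0.000298) and the fall from UUO-2 to UUO-7 was -1.03 ± 0.16 (adjusted p = 9.35e-05).

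miR-20a-5p, which shares its seed, took the same course, from 126, 96.9, 173 and 109 CPM in sham Macs to 256, 230, 200 and 226 CPM at UUO-2 and 90.4, 103, 97.3 and 76.8 CPM at UUO-7. UUO-2 libraries did not overlap with either neighbour (0.85 ± 0.20, adjusted p = 0.00364, then -1.31 ± 0.21, adjusted p = 0.000108). miR-18a-5p went from 26.0, 35.1, 16.4 and 18.4 CPM to 54.8, 62.1, 42.9 and 52.1 CPM, then 17.0, 18.0, 24.1 and 13.2 CPM. Its change was the largest of the 5 that rose (1.15 ± 0.26, adjusted p = 0.00265) and the largest of the 6 that then fell (-1.55 ± 0.27, adjusted p = 0.000261). The other strand of its hairpin, miR-18a-3p, rose alike (48.4 ± 5.19 to 89.9 ± 7.23 CPM, n = 4 each, 0.89 ± 0.14, edgeR adjusted p = 0.000119). At UUO-7 miR-18a-3p still stood above sham in all 4 libraries (56.5 to 68.7 against 42.0 to 54.6 CPM). That difference was not called (0.32 ± 0.14, edgeR adjusted p = 0.0676). miR-19a-3p was 88.6, 99.7, 113 and 87.1 CPM in sham, 177, 173, 133 and 182 at UUO-2 and 92.1, 44.9, 59.9 and 57.4 at UUO-7 (0.78 ± 0.24, adjusted p = 0.0175, then -1.39 ± 0.24, adjusted p = 0.000261).

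In all, 5 of 9 members rose at UUO-2, beside 18.4% of the 457 loci tested in Macs, and none fell, beside 9.19%. The members' median log2 change was 0.78 against 0.15 over all loci. The 4 that were not called were miR-17-3p (0.16 ± 0.21, adjusted p = 0.618), miR-19a-5p (0.52 ± 0.48, 0.457), miR-19b-3p (0.19 ± 0.24, 0.606) and miR-92a-3p (-0.22 ± 0.12, 0.194). The call of miR-19a-3p was lost in 7 of 8 fits that left out 1 library (0.55 to 0.68, adjusted p 0.0650 to 0.131), all but the one without UUO-2 replicate 3, and when loci of 1 name were summed. That of miR-20a-5p was lost without UUO-2 replicate 1 (0.64, adjusted p = 0.0541), UUO-2 replicate 2 (0.64, 0.0526) or sham replicate 2 (0.56, 0.0588), and the count then fell from 5 to 3. Those for miR-17-5p, miR-18a-5p and miR-18a-3p were made in every one of these fits.

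miR-92a-3p, the most abundant member, was not called at UUO-2 or UUO-7 in Macs and fell after reversal. It was 44324, 44736, 46605 and 45280 CPM in sham, 38766, 39608, 40414 and 36846 at UUO-2, 37017, 38331, 45072 and 41235 at UUO-7, and 18895, 18596, 28408 and 26799 after reversal. UUO-2 lay below sham with no overlap but was not called, and the R-UUO libraries lay below every other library. The fall against sham was -0.96 ± 0.13 (adjusted p = 1.03e-05) and against UUO-7 -0.80 ± 0.12 (adjusted p = 0.000328), and the X locus fell alike (-0.95 and -1.11). The log2 ratio of miR-92a-3p to miR-17-5p was 7.81 ± 0.12 in sham and 6.70 ± 0.14 at UUO-2, with no overlap (exact two-sided permutation test, p = 0.0286, the smallest 4 against 4 can give). At UUO-7 it was 7.80 ± 0.21, a difference from sham of -0.01 (exact permutation p = 0.886). After reversal the ratio was lower than sham in ECs (7.52 ± 0.22 against 8.48 ± 0.22) and in the PDGFR-β+ population (6.36 ± 0.34 against 7.14 ± 0.24), each with exact permutation p = 0.0286. Over the 16 comparisons of this ratio the adjusted p of all 3 was 0.152, the lowest that family reached, so none passed. With that floor on p, none of 16 can pass after adjustment unless most of them separate fully. The failure to pass therefore does not show that the ratio held.

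**Figure D2:**
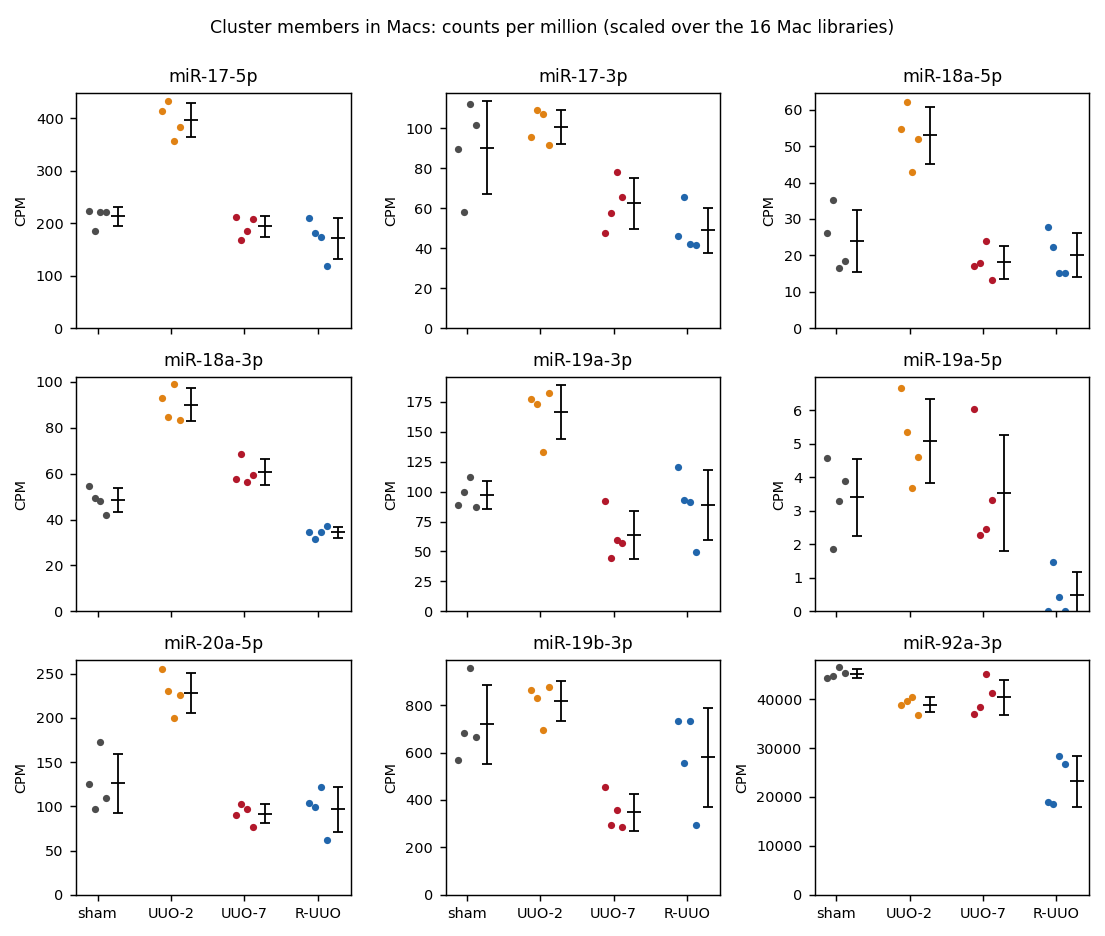
Level of each member in the 16 Mac libraries (CPM scaled within Macs, linear axes from 0) by injury group. Points are libraries and crosses with bars are mean ± SD (n = 4). miR-17-5p, miR-18a-5p, miR-18a-3p, miR-19a-3p and miR-20a-5p peak at UUO-2, miR-19b-3p is lowest at UUO-7, and miR-92a-3p is at least 36846 CPM in every library until it falls after reversal.

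From UUO-2 to UUO-7, 6 of 9 members fell in Macs (14.4% of loci fell, 16.2% rose). They were miR-17-5p, miR-17-3p, miR-18a-5p, miR-19a-3p, miR-20a-5p and miR-19b-3p, and the median over members was -1.03 against 0.00 over all loci. miR-17-3p, the weakest (-0.69 ± 0.21, adjusted p = 0.0178), was lost without UUO-2 replicate 2 (-0.63, 0.0620) or UUO-7 replicate 2 (-0.60, 0.0601). miR-18a-3p was lower by -0.57 ± 0.14 (adjusted p = 0.00431), under the 1.5-fold limit, and the change of miR-92a-3p was not called (0.05 ± 0.12, adjusted p = 0.770).

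Against sham, UUO-7 Macs had 2 members lower (16.8% of loci) and 0 higher (26.3%): miR-19b-3p and miR-19a-3p, both of the GUGCAAA family. miR-19b-3p fell from 570, 685, 957 and 667 CPM to 455, 294, 356 and 285 CPM, with no overlap (-1.05 ± 0.24, adjusted p = 0.00167). miR-19a-3p was nearer the threshold (-0.61 ± 0.24, adjusted p = 0.0435) and was lost without UUO-7 replicate 3 (-0.64, 0.0575) or replicate 5 (-0.70, 0.0682). Without UUO-7 replicate 2 or 4, or without any 1 sham library, 4 members were called.

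After reversal 3 of 9 members were lower than sham in Macs (10.5% of loci) and 0 higher (21.4%). Besides miR-92a-3p they were miR-17-3p (-0.87 ± 0.21, adjusted p = 0.00371) and miR-19a-5p (-2.25 ± 0.62, adjusted p = 0.00814), which rests on few reads: 27, 4, 9 and 15 counts in sham and 0, 9, 1 and 0 counts after reversal. Without R-UUO replicate 2 its change was -4.28 (adjusted p = 0.000768), and -4.07 (0.00489) against UUO-7. All 9 estimates were below 0. Without R-UUO replicate 4 or sham replicate 2 the count was 5. Against UUO-7, 3 were lower (7.22% of loci) and 1 higher (12.7%): miR-92a-3p, miR-18a-3p (60.6 ± 5.56 to 34.4 ± 2.25 CPM, -0.83 ± 0.15, adjusted p = 0.000843) and miR-19a-5p fell. miR-19b-3p rose (0.74 ± 0.24, adjusted p = 0.0320), a call lost in 6 of 8 fits without 1 library (adjusted p 0.0511 to 0.112). The call of miR-19a-5p was lost without R-UUO replicate 1 (-1.80, 0.0569), R-UUO replicate 4 (-2.04, 0.0560) or UUO-7 replicate 2 (-1.82, 0.0604), and the count then went from 4 to 2 without either of those R-UUO libraries. The Mac comparisons share sham, UUO-2 or UUO-7 libraries with one another. Over the same groups the summed Mac markers were 34889 to 41963 CPM in sham and 24043 to 29708 at UUO-2. They were 17974 to 21208 CPM at UUO-7 and 14702 to 27644 after reversal. miR-150-5p, listed as a lymphocyte marker, was 92.4 to 164 CPM in sham Macs and 235 to 407 at UUO-2. It was 454 to 744 CPM at UUO-7 and 146 to 615 after reversal. In ECs miR-150-5p was 1057 to 3651 CPM, above every Mac library, so here it does not mark lymphocytes alone. The red cell markers summed to 0 to 2.47 CPM in sham Macs, 4.26 to 11.98 at UUO-2 and 1.06 to 4.38 at UUO-7. Their part in the members' changes was not tested.

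In PT cells miR-17-5p was called higher than sham in each injured group, and at UUO-2 it was the 1 member called. miR-17-5p was 32.3, 58.7, 52.3 and 55.9 CPM in sham, 79.8, 84.4, 86.9 and 92.4 at UUO-2, 103, 76.5, 111 and 99.8 at UUO-7 and 96.0, 106, 71.6 and 62.7 after reversal. All 12 injured libraries lay above all 4 sham libraries. The change against sham was 0.79 ± 0.23 (adjusted p = 0.0232) at UUO-2, 0.97 ± 0.22 (0.00251) at UUO-7 and 0.76 ± 0.23 (0.0133) after reversal, with the same sham libraries in all 3 comparisons. The UUO-2 call was lost without UUO-2 replicate 3 (0.74, 0.0624) or replicate 4 (0.73, 0.0684), and the R-UUO call without R-UUO replicate 2 (0.57, 0.0762) or sham replicate 1, where it fell under 1.5-fold (0.57, 0.0412).

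At UUO-2 miR-17-5p was the 1 member called of 6 (14.8% of 330 loci rose, 4.24% fell), and 2 were called without sham replicate 1 or 4. At UUO-7 there were 3 of 6 (25.5% rose, 17.6% fell): miR-17-5p, miR-20a-5p (41.0, 19.2, 25.2 and 43.6 CPM in sham, 58.9, 60.1, 64.4 and 48.2 at UUO-7, 0.84 ± 0.26, adjusted p = 0.0159) and miR-92a-3p. After reversal 4 of 6 were higher than sham (25.8% rose, 13% fell). Members' medians were 0.74, 1.01 and 0.79, against 0.02, 0.00 and 0.03 over all loci. With library size alone as the scaling, which shifted the median of all loci to -0.15, -0.36 and -0.41, miR-17-5p was no longer called in any of the 3 comparisons, nor miR-20a-5p in either of the comparisons that had called it. Alongside, the PT markers fell from 99842 to 130294 CPM in sham to 32309 to 53395 at UUO-7, and the PDGFR-β+ markers rose from 1617 to 3496 CPM to 7030 to 18214. The study reports that PT-enriched miRNAs fell within PT cells with injury and proposes dedifferentiation, so the PT sum does not measure purity alone. Mac markers in PT libraries summed to 73.1 to 106 CPM in sham, 139 to 236 at UUO-2, 136 to 236 at UUO-7 and 102 to 281 after reversal, so sham lay below UUO-2 and UUO-7 with no overlap. The part of other cells in these changes was not tested.

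miR-19 after reversal was decided in size by 1 PT library. miR-19b-3p was 36.7, 46.0, 59.5 and 62.6 CPM in sham and 1131, 140, 169 and 117 CPM after reversal, replicate 1 being the highest. All 4 lay above sham, and the change was 2.93 ± 0.61 (adjusted p = 0.00166), or 1.49 (adjusted p = 0.000756) without that library. miR-19a-3p had 2, 2, 0 and 12 counts in sham and 187, 27, 18 and 11 after reversal, a change of 3.49 ± 0.86 (adjusted p = 0.00494), or 2.11 (adjusted p = 0.0237) without it. Without sham replicate 4, the sham library with 12 counts, it was 4.96 (adjusted p = 0.00183). Its groups overlapped. miR-20a-5p was called with that library (0.82 ± 0.27, adjusted p = 0.0223) and not without it (0.65, adjusted p = 0.0644), nor without sham replicate 2 (0.60, 0.0660) or sham replicate 3 (0.68, 0.0728).

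The miR-92a-3p counts assigned to its 2 loci moved in opposite directions in PT cells. Its mature reads are identical at both, so these values describe where reads were placed and not a measured change of either hairpin. At the chromosome 14 locus it was 5806, 4929, 5659 and 5508 CPM in sham, 7203, 8644, 8410 and 7613 at UUO-2, 12622, 11183, 10110 and 11204 at UUO-7 and 6515, 5655, 5839 and 8912 after reversal. The UUO-7 libraries were the highest, at 1.04 ± 0.15 over sham (adjusted p = 6.26e-05), and the UUO-2 change was under 1.5-fold (0.54 ± 0.14, adjusted p = 0.0155). After reversal the level was 0.74 lower on the log2 scale than at UUO-7 (-0.74 ± 0.14, adjusted p = 0.0310), the 1 member called of 6 in that comparison (0.909% of loci fell, 0.606% rose). That call was lost without R-UUO replicate 4 (-0.68, 0.0859), UUO-7 replicate 2 (-0.68, 0.0730) or UUO-7 replicate 5 (-0.75, 0.0891).

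At the X locus miR-92a-3p was 1191, 1039, 1396 and 1246 CPM in sham PT cells, 531, 528, 626 and 459 at UUO-2, 603, 615, 308 and 510 at UUO-7 and 163, 415, 666 and 614 after reversal. Every injured library lay below every sham library (-1.18 ± 0.32, adjusted p = 0.0156, -1.26 ± 0.32, 0.00497, and -1.40 ± 0.32, 0.00303). The X copy thus took 17.0 to 19.8% of the miR-92a-3p counts in sham PT cells, 5.69 to 6.93% at UUO-2, 2.96 to 5.21% at UUO-7 and 2.44 to 10.2% after reversal. In the other populations it took 3.78 to 5.04% (ECs), 4.58 to 6.86% (Macs) and 2.18 to 3.61% (PDGFR-β+ cells). The share of miR-19b-3p given to its X copy showed no such split, with a median of 6.64% in PT cells and 5.84 to 6.15% in the other populations, though PT libraries held as few as 34 counts of it. With both loci summed, miR-92a-3p in PT cells was higher than sham at UUO-7 (0.90, adjusted p = 0.000146) and lay at 0.39 (0.0677) at UUO-2 and 0.12 (0.503) after reversal. Identical mature reads carry no mark of their hairpin. ShortStack, the Bowtie wrapper used for alignment, places them by a setting that is not given in the sources used here.

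**Figure D3:**
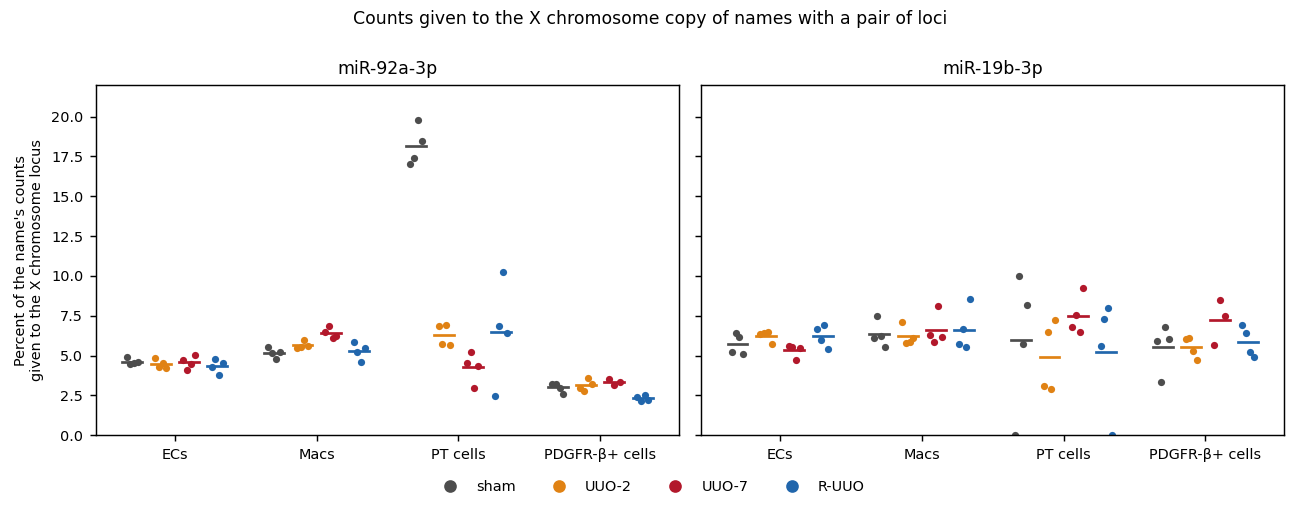
Percent of the counts of miR-92a-3p (left) and miR-19b-3p (right) given to the X chromosome locus in each library, by cell type and injury group. Points are libraries and bars are group means. For miR-92a-3p the 4 sham PT libraries lie at 17.0 to 19.8% and every other library at 10.2% or less, while miR-19b-3p shows no group apart.

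The other miRNAs of the X cluster were sparse. miR-363-3p, made only there, had 37 counts over the 4 sham PT libraries (8.70 CPM ± 3.99) and 51 counts at UUO-7 (5.25 ± 3.44), and its changes in PT cells were not called (-0.83 ± 0.50, adjusted p = 0.176, at UUO-7). miR-106a-5p, which differs from miR-17-5p at 1 base (U10A) and is named after its values were seen, had 19 counts in sham PT cells (4.41 CPM ± 1.04) and 7 at UUO-7 (0.755 ± 0.540). The other strands of the X hairpins, miR-92a-2-5p and miR-19b-2-5p, had 0 counts in all 63 libraries. On chromosome 14 the other strand of Mir92-1, miR-92a-1-5p, is read from that hairpin. In PT cells it had 11 counts in sham and 82, 277 and 68 in the injured groups, and it was higher in all 3 comparisons with sham (2.56 ± 0.53, adjusted p = 0.00414, 3.13 ± 0.51, 0.000206, and 2.31 ± 0.54, 0.00308). In Macs it rose at UUO-2 (69.5 ± 15.1 to 171 ± 46.1 CPM, 1.29 ± 0.23, adjusted p = 0.000360), where miR-92a-3p did not.

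In ECs no member was called at UUO-2 (1.49% of 469 loci rose, 0.213% fell) or at UUO-7 (6.18% rose, 5.33% fell). All 8 estimates were above 0 at both times, with medians of 0.39 and 0.42 against 0.02 and -0.05 over all loci. Mac markers in EC libraries summed to 20.1 to 60.2 CPM in sham, 58.4 to 124 at UUO-2, 110 to 193 at UUO-7 and 89.3 to 132 after reversal, and their part in these values was not tested. miR-17-5p was 17.9, 21.4, 24.3 and 20.0 CPM in sham, 29.8, 31.6, 26.9 and 30.4 at UUO-2, 29.0, 36.7, 27.3 and 25.7 at UUO-7 and 34.5, 28.6, 31.7 and 32.8 after reversal. Every injured library lay above every sham library, but the change was 1.42-fold at UUO-2 (adjusted p = 0.147) and at UUO-7 (adjusted p = 0.0430), under the limit of 1.5. Without UUO-7 replicate 2, 4 or 5 or sham replicate 2, 3 or 4, miR-17-5p was called at UUO-7. After reversal it was 1.52-fold (0.61 ± 0.16, adjusted p = 0.0117), which DESeq2, library size scaling or no filter did not call.

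Against sham, 3 of 8 members were higher in R-UUO ECs (11.7% of loci rose, 5.12% fell), the others being the miR-19 pair. miR-19b-3p was 73.4, 106, 148 and 104 CPM in sham and 191, 138, 657 and 186 after reversal, with replicate 4 the highest and the groups overlapping (1.44 ± 0.39, adjusted p = 0.0148). miR-19a-3p went from 6.83, 10.6, 12.7 and 8.39 CPM to 16.1, 11.1, 53.6 and 22.8 CPM (1.39 ± 0.38, adjusted p = 0.0148). Without replicate 4 the changes were 0.75 (adjusted p = 0.0351) and 0.86 (adjusted p = 0.0329), that of miR-17-5p was 0.69 (adjusted p = 0.00875), and 3 members were still called. miR-92a-3p, the EC member with a known vascular role, was 6994, 7455, 6705 and 7275 CPM in sham and 5731, 4975, 7011 and 5015 after reversal, which was not called (-0.32 ± 0.18, adjusted p = 0.210). From UUO-2 to UUO-7 (1.49% rose, 0.426% fell) and from UUO-7 to R-UUO (0.853% rose, 0.213% fell) no EC member was called.

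In PDGFR-β+ cells, the population of pericytes and myofibroblasts, 1 of 8 members was called higher than sham at UUO-2, 2 at UUO-7, a share under that of all loci there, and 4 after reversal, and 0 were called lower. miR-19a-3p was 9.26, 6.51, 3.92 and 5.95 CPM in sham, 24.0, 13.9, 6.93 and 30.8 at UUO-2, 21.4, 22.9 and 10.4 at UUO-7 and 20.9, 16.9, 15.3 and 15.9 after reversal. UUO-7 and R-UUO lay above sham with no overlap and UUO-2 overlapped it. The change was 1.52 ± 0.42 (adjusted p = 0.0425) at UUO-2, where miR-19a-3p was the 1 member called of 8 (5.66% rose, 0.629% fell) and where 6 of 8 fits without 1 library lost it (adjusted p 0.0545 to 0.150), while without UUO-2 replicate 3 the count was 2. At UUO-7 it was 1.49 ± 0.44 (0.0096) and after reversal 1.40 ± 0.42 (0.0128), both kept in all such fits.

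At UUO-7 2 of 8 members were higher than sham (34% of loci rose, 14.3% fell), the other being miR-17-5p: 25.7, 20.2, 19.9 and 27.3 CPM in sham and 31.7, 47.8 and 41.7 at UUO-7, with no overlap (0.79 ± 0.25, adjusted p = 0.0145, not called without UUO-7 replicate 4, 0.63, 0.0873). After reversal 4 of 8 were higher (27.9% rose, 13.8% fell): miR-19a-3p, miR-17-5p (0.75 ± 0.23, 0.0178), miR-20a-5p (0.84 ± 0.28, 0.0223) and miR-19b-3p (0.90 ± 0.34, 0.0411). None of the 4 overlapped with sham, but these are the members already called, and the share of all loci without overlap was not taken. miR-17-5p was lost without sham replicate 3 (0.65, 0.0533), miR-20a-5p in 4 of 8 such fits and miR-19b-3p in 5 of 8, and the count went down to 2 without R-UUO replicate 4 or sham replicate 1, 2 or 3. The median of all loci was itself 0.50 at UUO-7 and 0.40 after reversal, beside members' medians of 0.73 and 0.79. Over the same groups the PDGFR-β+ markers summed to 326459 to 398331 CPM in sham and 204517 to 400878 at UUO-2. They summed to 145392 to 174139 CPM at UUO-7 and 92507 to 159551 after reversal. The study reports that these cells lost miR-143 and miR-145 in late injury while miR-199 and miR-214 rose. The sum thus pools markers reported to go opposite ways. Mac markers in these libraries summed to 53.0 to 171 CPM in sham, 283 to 329 at UUO-2, 273 to 698 at UUO-7 and 121 to 205 after reversal. Their part in the members' changes was not tested. miR-92a-3p stayed between 2267 and 4090 CPM in all 15 libraries, with estimates of 0.10, -0.03 and -0.01 against sham. Neither of the comparisons among injured groups called a member (UUO-7 against UUO-2 with 23.5% of loci higher and 10.3% lower, and R-UUO against UUO-7 with 3.14% and 0.839%). Between UUO-2 and UUO-7, PT cells also had 0 of 6 (2.73% of loci higher at UUO-7, 1.52% lower).

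**Figure D4:**
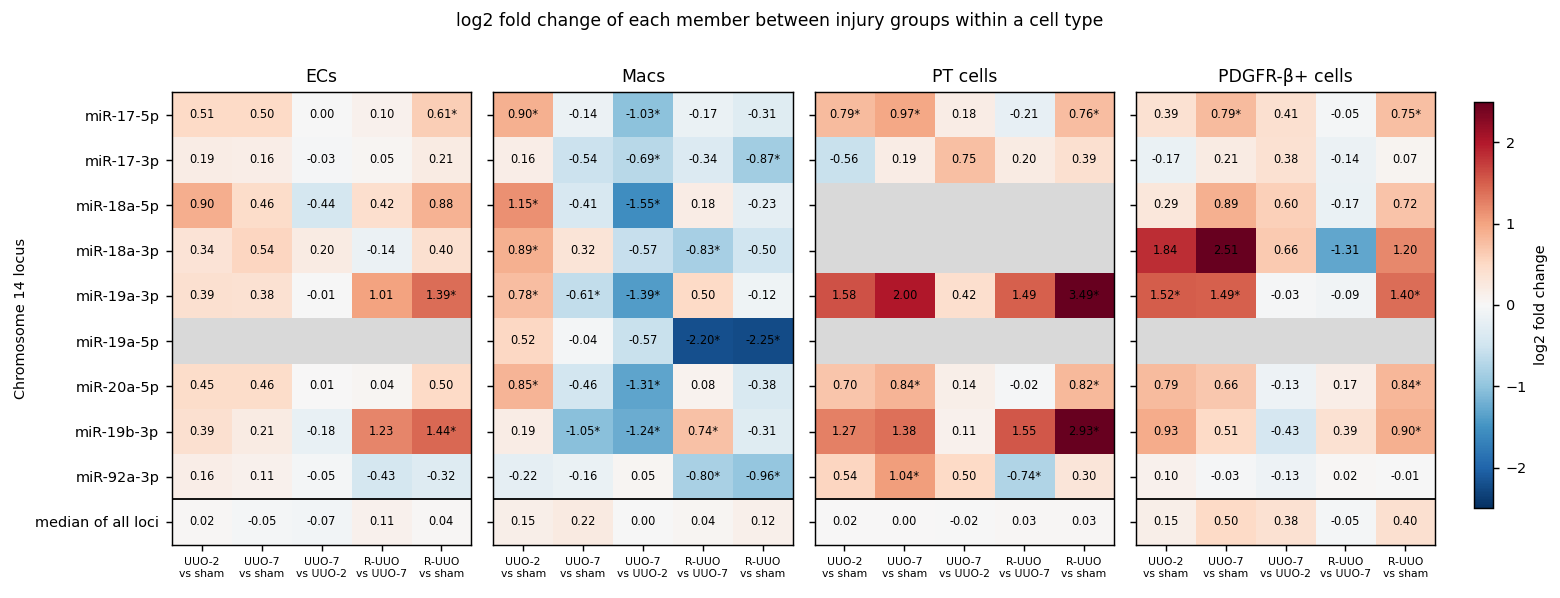
log2 fold change of each member's chromosome 14 locus (rows) in 5 comparisons of injury groups (columns) within each cell type, from edgeR. An asterisk marks adjusted p under 0.05 with at least 1.5-fold, grey marks a locus that did not pass the low-count filter, and the bottom row is the median of all loci tested. Colours stop at the ends of the scale, beyond which the printed value holds. Of the 4 populations, Macs alone have members marked in UUO-7 against UUO-2, where 6 are marked.

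Set side by side, the populations differed at UUO-7. In the fit over 63 libraries the change from sham to UUO-7 was lower in Macs than in the mean of the other populations for 6 of 9 members (13.1% of loci lower, 7% higher), with a median difference of -1.12 against -0.12 over all loci. The largest was in miR-19a-3p (-2.07 ± 0.55, adjusted p = 0.00398), and miR-17-5p (-1.04 ± 0.22, 0.000273), miR-20a-5p (-1.27 ± 0.27, 0.000304) and miR-19b-3p (-1.91 ± 0.49, 0.00256) were called in every fit that left out 1 mouse, while miR-18a-3p and miR-92a-3p were lost in 11 and 8 of 16. In PT cells the change was higher than the mean of the rest for 5 of 9 (15.4% higher, 8.49% lower), led by miR-92a-3p (1.25 ± 0.17, adjusted p = 9.14e-08), but DESeq2 called 1 of them and library size scaling 0, and fits that left out 1 mouse called 2 to 5. For ECs (0.894% of loci higher, 10.9% lower at UUO-7) and the PDGFR-β+ population (14% higher, 8.79% lower) no member's difference was called, though library size scaling called 5 for the PDGFR-β+ population and fits without 1 mouse 0 to 1. At UUO-2 neither population had a member called (0% higher and 0.149% lower in ECs, 3.73% and 2.68% for PDGFR-β+ libraries). At UUO-2 the difference was called for miR-92a-3p alone, lower in Macs (-0.62 ± 0.17, adjusted p = 0.0109, 6.41% of loci lower) and higher in PT cells (0.71 ± 0.17, 0.00299, 9.84% higher), and DESeq2 called neither. The Mac call was lost in 8 of 16 fits without 1 mouse, and the PT call without the mice R-UUO replicate 2 (0.58, adjusted p = 0.0269) or UUO-2 replicate 4 (0.58, 0.0589). Libraries outside the injury groups compared carry no weight in a difference. Leaving out such a mouse acts only through the scaling, filter and spread shared by the 63 libraries. Over these fits the median of all loci for the Mac difference at UUO-2 ran from -0.24 to 0.12. The UUO-2 rise of miR-17-5p in Macs was not shown to differ from that in the other populations (0.20 ± 0.22, adjusted p = 0.746).

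Whether members moved together was also read library by library. Each member's log2 CPM was taken less the mean of its injury group, so that only the spread among mice of 1 group remained, and members were correlated over the 16 libraries of a cell type (15 in PDGFR-β+ cells). These libraries share the depth and scaling of each sample, and the values are descriptions. The median Pearson r over pairs of members was 0.31 in PDGFR-β+ cells (28 pairs), 0.28 in PT cells (15), 0.20 in ECs (28) and 0.02 in Macs (36), against medians of 0.00 to 0.02 over all pairs of loci. miR-19a-3p and miR-19b-3p, which differ at 1 base, were the closest pair in every population (r = 0.93, 0.90, 0.74 and 0.79). In Macs miR-17-5p went with miR-19a-3p (r = 0.82) and miR-19b-3p (r = 0.73), while miR-92a-3p had r below 0 with 7 of its 8 partners, the lowest being -0.51 with miR-17-5p. The median r of miR-92a-3p with the other members was 0.05 for EC libraries, -0.30 for Mac libraries, -0.20 for PT libraries and -0.15 for the PDGFR-β+ population.

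The split between the strands of a hairpin was read for miR-17, miR-18a, miR-19a and miR-20a. miR-17 gave mostly its 5p strand (median 81.6% of its counts, 66.4 to 95.7% over libraries) and miR-20a nearly all (median 97.4%), while miR-19a gave mostly its 3p strand (5p median 1.78%). miR-18a was the exception: the 5p strand took 18.2 to 44.5% in Macs (median 30.5%), so that miR-18a-3p outnumbered miR-18a-5p in all 16 Mac libraries, and a median of 57.3% in ECs. At UUO-7 the 5p share of miR-18a in Macs was 18.2 to 29.9% and at UUO-2 30.3 to 42.3%, with no overlap. The ratio of miR-18a-5p to miR-17-5p, neighbours with related seeds, passed the test in none of the 16 comparisons of injury groups (lowest adjusted p = 0.869, exact two-sided permutation tests, which cannot go below p = 0.0286 with 4 against 4 or 0.0571 with 3 against 4). The lowest p was in PT cells at UUO-7, where it was -4.83 ± 0.49 against -3.83 ± 0.64 in sham (exact permutation p = 0.0571). In Macs its change at UUO-2 was 0.29 on the log2 scale (-2.91 ± 0.11 against -3.19 ± 0.60).

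The paralog cluster in Mcm7, a replication licensing gene, was also higher in Macs. All 6 of its miRNAs were higher there than in the other populations (0.73 to 1.85, median 1.31, beside 30.4% of loci). Its members other than miR-25-3p are named after their values were seen. At UUO-2 in Macs 2 of 6 rose (18.4% of loci), miR-25-5p (1.71 ± 0.30, adjusted p = 0.000286) and miR-106b-3p (0.79 ± 0.15, 0.000594). miR-25-3p, its most abundant member and an AUUGCAC seed relative of miR-92a-3p, was not called at UUO-2 (0.13 ± 0.14, adjusted p = 0.542). After reversal 2 of 6 were lower than sham in Macs (10.5% of loci), miR-25-3p (-0.64 ± 0.14, adjusted p = 0.00181) and miR-106b-5p (-0.77 ± 0.26, 0.0260). From UUO-2 to UUO-7 in Macs 1 of 6 fell (miR-106b-5p, -0.88 ± 0.26, adjusted p = 0.0141, beside 14.4% of loci). In PT cells 2 of 6 rose from UUO-2 to UUO-7 (2.73% of loci), miR-25-3p (0.75 ± 0.15, 0.00921) and miR-93-5p (0.64 ± 0.17, 0.0359), and 0 of 6 were called against sham. miR-92b-3p, which has the same seed from a hairpin on chromosome 3, went the other way from miR-92a-3p: lower in Macs (-2.81, adjusted p = 3.72e-29) and higher there at UUO-7 than in sham (1.94 ± 0.29, 2.81e-05).

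The loci outside the cluster whose profile over the 63 libraries was most like the mean profile of the members were miR-532-5p on the X chromosome (Pearson r = 0.89), miR-342-3p on chromosome 12 (r = 0.89) and miR-16-5p on chromosome 14 (r = 0.88). Members themselves had r = 0.68 (miR-19a-5p) to 0.90 (miR-18a-3p) with that mean, which they are part of. The 63 points share their sorting into 4 populations.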

How the data were processed

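Per the labels and the study's methods, kidneys were perfused, digested and sorted by FACS, and the authors trimmed reads (Trim Galore 0.4.1, cutadapt 1.1), ran ShortStack, a wrapper of Bowtie, against GRCm38 and miRBase, and deposited raw counts per mature miRNA locus, 1 column per library. The ShortStack setting that places reads matching several loci is not given in the sources used here; 82 of 1966 names have over 1 locus. Library totals were 616565 to 10819385, so the floor of 3 counts was 0.277 to 4.87 CPM. That floor reflects depth only and not the spread between mice.

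Libraries were grouped by cell type and injury from the labels. Within each cell type, loci passing edgeR's filterByExpr were fitted by quasi-likelihood (edgeR 4.0.16, R 4.3.3, TMM) over all 4 injury groups, and a fit over 63 libraries tested cell types and differences of change between them. A call needed a Benjamini-Hochberg adjusted p under 0.05 over all loci of that comparison and a fold of at least 1.5. The SE given with a log2 change is approximate: the absolute change divided by the square root of its quasi-likelihood F statistic. Ratios of members (1 count added) were compared by exact two-sided permutation tests (scipy 1.17.1). Alternatives were DESeq2 1.42.0, library size scaling, no filter, loci of a name summed, a fit of only the groups compared, a replicate block and each library or mouse left out. Scripts were tested on simulated counts.

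All members were named, with every locus; paralog, other-strand and same-seed lists are given by counts and by their most abundant miRNA, and other names are said to be chosen after their values were seen. Members and lists were chosen with earlier results of these data known. Libraries with the same injury and number come from 1 mouse, so the 63-library fit was also run with the mouse as a block: residuals of same-mouse pairs correlated at a median r of 0.0485 (93 pairs), and of other pairs in the injury group at -0.0166 (279 pairs). No pair of libraries was a duplicate (lowest chi-square per degree of freedom 8.96 over 93 pairs). 1 PDGFR-β+ UUO-7 library was not analysed here. A column pooling counts over libraries was not used.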

Additional observations from a re-analysis of the deposited data

Results flagged for a closer look

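A library stood apart from the others of its group in 11 of 135 groups of levels and 1 of 30 groups of X shares, where chance marks about 1 group in 20. That rate does not apply to groups near 0 counts, as for miR-19a-5p and miR-18a-5p below. The lowest of their groups were miR-17-5p in Mac sham replicate 2 (185 CPM against 222 to 223), miR-19a-3p in Mac UUO-2 replicate 3 (133 against 173 to 182), miR-19b-3p in PDGFR-β+ sham replicate 3 (44.2 against 89.9 to 98.4) and miR-18a-5p in PDGFR-β+ UUO-2 replicate 3 (0 against 1.80 to 2.51). The highest were miR-19b-3p in PT R-UUO replicate 1 (1131 CPM against 117 to 169), miR-20a-5p in EC R-UUO replicate 4 (22.6 against 14.4 to 15.4), miR-17-3p in PT UUO-2 replicate 3 (9.54 against 4.92 to 5.44) and miR-92a-3p in PDGFR-β+ UUO-2 replicate 2 (3616 against 3337 to 3382). miR-19a-5p was above 0 in 1 library of a group otherwise at 0 in PT sham replicate 1 (1.08 CPM), PT UUO-2 replicate 4 (0.993) and PDGFR-β+ UUO-2 replicate 2 (0.164). The X locus took 4.71% of miR-19b-3p in EC UUO-7 replicate 4, against 5.50 to 5.59% in the others.

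The change from sham differed between a population and the mean of the other 3 for 13 results (log2 difference, edgeR adjusted p). At UUO-7 it was lower in Macs for miR-17-5p (-1.04, 0.000273), miR-18a-3p (-1.47, 0.0398), miR-19a-3p (-2.07, 0.00398), miR-19b-3p (-1.91, 0.00256), miR-20a-5p (-1.27, 0.000304) and miR-92a-3p (-0.69, 0.00212). At UUO-7 it was higher in PT cells for miR-17-5p (0.75, 0.00955), miR-19a-3p (1.77, 0.0472), miR-19b-3p (1.65, 0.0104), miR-20a-5p (0.79, 0.0323) and miR-92a-3p (1.25, 9.14e-08). At UUO-2 miR-92a-3p was lower in Macs (-0.62, 0.0109) and higher in PT cells (0.71, 0.00299). Comparisons of different populations share the libraries of the others.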

How the results depend on the processing

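No called direction reversed under any alternative run. Counts of members called moved by over 1.5 times as follows, for comparisons with sham unless named. DESeq2 gave 1 in ECs for R-UUO against UUO-7, 2 in PDGFR-β+ R-UUO, 2 in PT UUO-2, 5 in PT UUO-7, and for differences of change 0 in Mac UUO-2, 0 in PT UUO-2 and 1 in PT UUO-7. Library size scaling gave 1 in ECs for R-UUO against UUO-7, 1 in Mac UUO-7, 1 in PDGFR-β+ cells for UUO-7 against UUO-2, 5 in PDGFR-β+ UUO-7, 0 in PT cells for R-UUO against UUO-7, 2 in PT R-UUO, 0 in PT UUO-2, 5 for ECs against other cells in sham, and for differences 0 in Mac UUO-2, 5 in PDGFR-β+ UUO-7, 0 in PT UUO-2 and 0 in PT UUO-7. With no low-count filter there were 2 in ECs for R-UUO against UUO-7, 2 in PDGFR-β+ R-UUO, 2 in PDGFR-β+ UUO-2, 1 in PDGFR-β+ UUO-7, 3 in PT cells for R-UUO against UUO-7, 2 in PT R-UUO, 2 in PT UUO-2, 6 in PT UUO-7, and for differences 0 in Mac UUO-2 and 3 in PT UUO-7. Summing loci of a name gave 1 in EC UUO-7, 4 in Mac UUO-7, 2 in PT UUO-2, 5 in PT UUO-7, and 0 for the differences in Mac UUO-2 and PT UUO-2. Fitting only the 2 groups gave 2 in Macs for R-UUO against UUO-7, 4 in Mac UUO-7, 0 in PDGFR-β+ UUO-2, 0 in PT cells for R-UUO against UUO-7, 2 in PT R-UUO, 3 in PT UUO-2 and 5 in PT UUO-7. Within a cell type equal numbers in different injury groups are different mice and share only a number; a replicate block there gave 1 in Mac UUO-7, 2 in PDGFR-β+ R-UUO, 2 in PDGFR-β+ UUO-2, 1 in PDGFR-β+ UUO-7, 0 in PT cells for R-UUO against UUO-7 and 5 in PT UUO-7. In the fit over all libraries the mouse block changed only the PT calls given in the report. The cause of these shifts was not tested.

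Leaving out 1 library gave, against sham, 0 to 1 in EC UUO-7, 3 to 5 in Mac UUO-2, 2 to 4 in Mac UUO-7, 3 to 5 in Mac R-UUO, 0 to 2 in PDGFR-β+ UUO-2, 2 to 4 in PDGFR-β+ R-UUO, 0 to 2 in PT UUO-2, 3 to 4 in PT UUO-7 and 3 to 4 in PT R-UUO. Against UUO-7, R-UUO gave 2 to 5 in Macs and 0 to 1 in PT cells, and UUO-7 against UUO-2 gave 5 to 7 in Macs. Leaving out 1 mouse gave 1 to 3 for ECs and 3 to 5 for PT cells in sham against other cells, and for differences 0 to 1 in EC UUO-7, 0 to 1 in Mac UUO-2, 4 to 6 in Mac UUO-7, 0 to 1 in PDGFR-β+ UUO-7, 0 to 1 in PT UUO-2 and 2 to 5 in PT UUO-7. Of 3520 single results under a library or mouse left out, 3179 kept direction and side of the threshold. Estimates not called that changed sign are counted as moved (137 with the other moves).

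Depth limits miR-19a-5p everywhere, miR-18a outside Macs, and miR-19a-3p in sham PT cells, where changes were not detectable or rest on few counts. With 4 against 4 libraries the permutation tests cannot go below p = 0.0286, and with 3 against 4 below 0.0571.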
